A study of Sus scrofa with 6 samples.

Results

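The collagens and structural matrix proteins of the left ventricular (LV) free wall were represented by 37 genes, out of 6765 genes that carry a single symbol on the array. They comprised every gene whose annotated symbol begins as a collagen chain (COL, a number, A and a number) and 34 further named matrix genes, of which 22 have a probe set under their name. The collagens contributed 15 genes with 30 probe sets and the other matrix genes 22 genes with 38 probe sets. CTGF, EFEMP1, ELN, FBLN2, FBLN5, FBN2, FMOD, HSPG2, LOXL2, MFAP4, OGN and PCOLCE have no probe set under their symbols and were not analysed here, nor were the collagen chains COL1A1, COL4A1 and COL6A1. Myocardial RNA came from 6 Large White piglets at 28 days of age, 1 animal per Affymetrix Porcine Genome Array. The 3 Dox-injected piglets had received a single intravenous dose of doxorubicin (Dox), an anthracycline anticancer drug that damages cardiac muscle, at 2.0 mg/kg and 8 days of age, and the 3 control piglets had been injected with phosphate-buffered saline (PBS). The tissue was taken 3 weeks after the injection (the published methods give slightly different ages and a range of doses). The RNA was extracted from bulk tissue, so that all its cell types contribute to each signal.

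Collagens are triple-helical proteins that bear the mechanical load of the cardiac interstitium. Fibroblasts secrete most of the fibrillar chains, whereas network-forming chains such as type IV collagen build the basement membranes around cardiomyocytes and capillaries. Small leucine-rich proteoglycans coat the fibrils and set their spacing, fibrillin microfibrils carry elastin, matricellular proteins signal to cells without bearing load, and lysyl oxidases and chaperones finish the fibril. In the postnatal heart the matrix is deposited while the ventricle thickens, and in many forms of heart failure it accumulates as fibrosis.

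Each array value is a MAS5 signal, a linear-scale brightness of 1 probe set. Each gene was read at its brightest probe set by geometric mean over the 6 arrays, and differences are mean log2 signals of Dox-injected minus PBS-injected piglets, with their standard error (SE) and, where given, 95% confidence interval (CI) from limma. A signal no higher than the highest one of the array's Tag control spots, designed to match no pig transcript (2.5 to 6.3 on the 6 arrays), is called within the Tag range. No difference is read for COL2A1, COL7A1, COL10A1 and COL11A1, which lay there on 4 or more of 6 arrays, so that 33 of the 37 genes were left for reading. Muscle markers were bright, with MYH7, the slow cardiac myosin heavy chain, at signals of 5898.7 to 9785.6. All 9 measured cardiomyocyte markers exceeded the Tag range, but so did 5863 of the 6765 genes on 3 or more arrays. The tissue label itself was not tested. The 3′ to 5′ signal ratio of the GAPDH control ran from 1.16 to 1.28 among controls and from 1.24 to 1.55 after Dox. The same ratio of the actin control was 35.05, 120.6 and 62.44 among controls and 76.87, 29.58 and 32.6 after Dox, so the groups overlapped for both, and their part in the results was not tested. Only 3 arrays per group limit the precision, an exact two-sided permutation test of 3 against 3 cannot give a p below 0.1, and all p-values rest on the spread between these 6 animals. A gene is called nominally lower or higher below where limma gave it an unadjusted p no greater than 0.05.

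Matrix genes had mostly lower signals in the Dox-injected piglets. Of the 37 genes, 30 (81.1%) had a log2 difference below 0, against 56% of all 6765 genes, and the median difference was -0.63 against -0.07 over all genes. With a Benjamini-Hochberg adjusted limit of 0.05 and a 2-fold difference in limma, 0 of the 37 genes passed, as did 0% of all genes and of all probe sets. Nominally, 14 of the 37 (37.8%) were lower, against 6.61% of all genes, and 1 (2.7%) was higher, against 4.92%. By the methods' t-test, 5 were lower and 0 higher. A log2 difference of -1 or less was found in 11 (29.7%), against 6.96% of all genes. Among the 33 genes read there were 10, since COL7A1 is not read. The 14 were DCN, FBN1, COL6A3, MFAP5, ASPN, COL15A1, PRELP, SERPINH1, FN1, POSTN, MGP, LOXL1, LUM and COL5A1, and the single higher gene was CYR61. Each of these 15 genes had a limma adjusted p of 0.521. In 11 genes (29.7%, against 10.4% of all genes) every Dox-injected piglet lay below every PBS-injected piglet, and in 0 (against 9.06%) did every one lie above.

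The number of lower genes depended on single animals. Without PBS replicate 1 it was 8 of 37 (2.5% of all genes), with the methods' t-test 5 (4.14% of all genes), and without both PBS replicate 1 and Dox replicate 3 it was 4 (2.94% of all genes). The count of genes lower without overlap was 22 without PBS replicate 2 (15.7% of all genes) and 19 without Dox replicate 1 (22.6% of all genes), since groups of 3 and 2 arrays overlap less often than groups of 3. In the first 3 of these settings 28, 30 and 29 of the 37 genes had a difference below 0. In whole tissue, fewer cells of a type and less RNA per cell cannot be told apart.

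**Figure D1:**
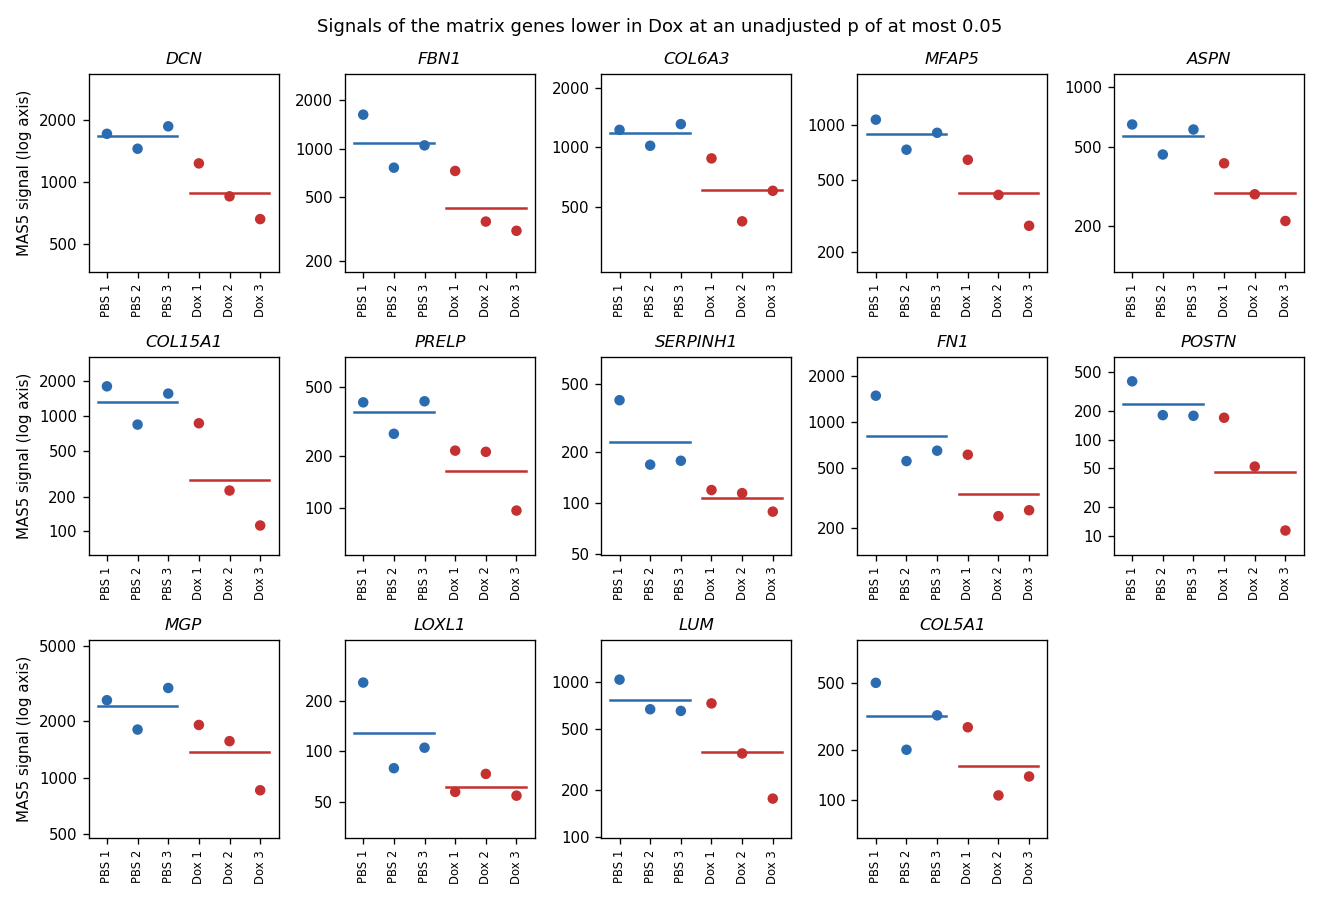
MAS5 signal (log axis) on each of the 6 arrays for the 14 nominally lower matrix genes, in order of p, with PBS-injected piglets in blue, Dox-injected piglets in red and lines at the geometric means of 3 arrays. PBS replicate 1 is often the highest point and Dox replicate 3 the lowest, as for POSTN at 404.4 and 11.3.

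Among the fibrillar collagens, which form the load-bearing fibrils, the COL5A1 chain of type V collagen had the smallest p. Type V collagen is a minor component that starts fibril assembly. The COL5A1 signals were 501.6, 200.2 and 321.1 in PBS-injected and 272.6, 107 and 138.7 in Dox-injected piglets. The groups overlapped at PBS replicate 2 and Dox replicate 1, and the difference was -0.998 (SE 0.42, limma adjusted p = 0.521, exact permutation p = 0.2). A further COL5A1 probe set gave 454.8, 248.4 and 278.8 against 203.3, 162.4 and 109.7, a difference of -1.04 with no overlap. The other 4 COL5A1 probe sets had signals of 0.1 to 12 on the 6 arrays. Averaging all COL5A1 sets gave -0.62 (limma unadjusted p = 0.0851), which was not nominally lower.

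COL1A2, a chain of type I collagen, the most abundant collagen of the heart, was measured only dimly here. Its signals were 25.9, 21.4 and 27.2 in PBS-injected and 15.3, 14.6 and 16.8 in Dox-injected piglets. The groups did not overlap, and the difference of -0.67 (SE 0.31) had an unadjusted p of 0.0581 and an adjusted p of 0.531 from limma. Across the omissions of single arrays it stayed between -0.77 and -0.60. Quantile and cyclic loess normalization of the arrays gave -0.42 and -0.45 (limma unadjusted p = 0.212 and 0.188). An offset of 16 before log2 gave -0.37. By the methods' t-test without these changes the unadjusted p was 0.00526. COL3A1, the chain of type III collagen, had signals of 9.3, 12.3 and 9.3 against 5.5, 14.2 and 7.3, so that Dox replicate 2 was the highest of all 6 arrays and Dox replicate 1, within the Tag range, the lowest. Its difference was -0.30 (95% CI -1.37 to 0.77, limma adjusted p = 0.843), and omission of Dox replicate 1 gave -0.0038 and that of Dox replicate 2 gave -0.69. The second COL1A2 probe set, at 0.4 to 4.3, was as dim as the Tag spots on 4 of 6 arrays and is not read.

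The remaining type V chains differed less. COL5A2 had signals of 12.2, 6.4 and 6.8 in PBS-injected and 6.7, 6.5 and 2.6 in Dox-injected piglets, a difference of -0.74 (limma adjusted p = 0.651) that was -0.30 without Dox replicate 3. COL5A3 had 73.3, 50.9 and 72.5 against 53.5, 65.3 and 32.1, a difference of -0.42 (limma adjusted p = 0.668) that moved to -0.13 when Dox replicate 3 was omitted and to -0.64 when Dox replicate 2 was. In both chains the groups overlapped. COL2A1 and COL11A1, chains typical of cartilage, had signals of 1.3 to 11 and 0.2 to 4.4.

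COL15A1 had the largest difference of the collagens. Type XV collagen is a proteoglycan of basement membranes in muscle and around capillaries. Its signals were 1794.3, 838.1 and 1552.3 in PBS-injected and 860.2, 225.4 and 112.4 in Dox-injected piglets. Dox replicate 2 and Dox replicate 3 were far below every control, whereas Dox replicate 1 lay just above PBS replicate 2. The signal was 4.75-fold lower (difference -2.25, SE 0.65, limma adjusted p = 0.521, exact permutation p = 0.2), with a 95% CI of the log2 difference of -3.74 to -0.76. Omitting Dox replicate 1 gave -3.06, and omitting Dox replicate 3 gave -1.59.

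Type VI collagen forms beaded microfibrils close to the cell surface. Its COL6A3 chain had signals of 1224.2, 1017.5 and 1309.1 in PBS-injected and 878.3, 422.3 and 602.4 in Dox-injected piglets. Every Dox-injected piglet lay below every control, with a difference of -0.96 (SE 0.27, limma adjusted p = 0.521, exact permutation p = 0.1), and omission of single arrays kept it between -1.22 and -0.69. The COL6A2 chain had signals of 163.6, 74.8 and 193.4 against 117.9, 98.3 and 97.3, which overlapped at PBS replicate 2, the lowest array (difference -0.36, limma adjusted p = 0.735). The COL6A2 difference was -0.77 and nominally lower without PBS replicate 2, and -0.088 without PBS replicate 3.

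COL4A2, a chain of the basement membrane collagen IV, had signals of 1585.5, 1015.5 and 1235.9 in PBS-injected and 984.8, 834.8 and 992.4 in Dox-injected piglets. The groups did not overlap, but the gap between PBS replicate 2 and Dox replicate 3 was small, and the difference was -0.43 (SE 0.20, unadjusted p = 0.0615, limma adjusted p = 0.533), or -0.26 without PBS replicate 1. COL8A1, a network collagen of vessels, had signals of 51.5, 9.7 and 29.1 against 23.7, 10.8 and 3. Its difference of -1.41 (limma adjusted p = 0.591) was -0.61 without Dox replicate 3. Another COL8A1 probe set had higher but low signals after Dox, 2.9, 2.3 and 0.7 against 5.7, 4.3 and 4.7. On 2 PBS arrays it was within the Tag range, so no direction is drawn from it. The remaining COL8A1 sets lay there on 6 and 4 arrays and are not read. Averaging all COL8A1 sets gave -0.22 (limma unadjusted p = 0.763). COL17A1, a transmembrane collagen of epithelia, had signals of 1 to 7.2. COL7A1 and COL10A1, of skin anchoring fibrils and growth plate cartilage, had signals of 0.4 to 5.3 and 2 to 4.2.

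Small leucine-rich proteoglycans were lower as a class, with all 5 measured genes below 0, a median difference of -0.95 and 4 of 5 nominally lower. DCN encodes decorin, which binds collagen fibrils and limits their thickness. Its signals were 1712.9, 1450.3 and 1861.7 in PBS-injected and 1231.5, 853.1 and 661.8 in Dox-injected piglets. Every Dox-injected piglet lay below every control, and the 1.88-fold lower level (difference -0.91, SE 0.24, limma adjusted p = 0.521) had the smallest unadjusted p of the matrix genes, 0.00456. Omission of single arrays kept the decorin difference between -1.15 and -0.70. A second DCN probe set was as dim as the Tag spots on all 6 arrays, and averaging both sets gave -0.26 (limma unadjusted p = 0.612).

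ASPN and PRELP had the same order of groups. ASPN, which encodes asporin, a decorin relative, had signals of 647.8, 457.8 and 611.1 in PBS-injected and 413.5, 289.1 and 212.4 in Dox-injected piglets (difference -0.95, SE 0.27). PRELP, whose product links collagen to basement membranes, had 406.5, 268.3 and 412.3 against 214.8, 211.4 and 97.3 (difference -1.12, SE 0.34, or -0.74 without Dox replicate 3). In neither gene did the groups overlap. LUM, which encodes lumican, had signals of 1034.2, 666.6 and 650.3 against 727, 346.1 and 177.2. Dox replicate 1 lay above the 2 lower controls for lumican, and the difference of -1.11 (SE 0.46) was -0.61 without Dox replicate 3. BGN, which encodes biglycan, had 220.4, 119.4 and 128.1 against 164.4, 123.4 and 105.8, a difference of -0.22 (95% CI -0.89 to 0.46, limma adjusted p = 0.817), which was 0.06 without PBS replicate 1.

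Of the 4 elastic fibre and microfibril genes, FBN1 and MFAP5 were nominally lower and FBLN1 and MFAP2 were not. FBN1 encodes fibrillin-1, the backbone of the microfibrils on which elastin is laid down. Its brighter probe set had signals of 1630.9, 763.3 and 1050.3 in PBS-injected and 728.4, 352.8 and 309.2 in Dox-injected piglets. The groups did not overlap, and the signal was 2.54-fold lower (difference -1.35, SE 0.37, limma adjusted p = 0.521). The dimmer FBN1 probe set had 336.8, 117.4 and 145.4 against 59.7, 54.7 and 33.8, again without overlap, with a difference of -1.90 (limma adjusted p = 0.521).

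MFAP5 encodes a microfibril-associated glycoprotein that binds fibrillin. Its signals were 1077.1, 734 and 910.7 in PBS-injected and 645.1, 412.2 and 277.9 in Dox-injected piglets. Every Dox-injected piglet lay below every control (difference -1.09, SE 0.30). FBLN1, the fibulin-1 gene, had 148.4, 84.6 and 118.1 against 102, 75.1 and 52.6, a difference of -0.63 with overlap (limma adjusted p = 0.556) that was -0.38 without Dox replicate 3. MFAP2, a further microfibril component, had signals of 8.9 to 33.5 and a difference of -0.39 (limma adjusted p = 0.811), which turned to 0.04 without PBS replicate 1.

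**Figure D2:**
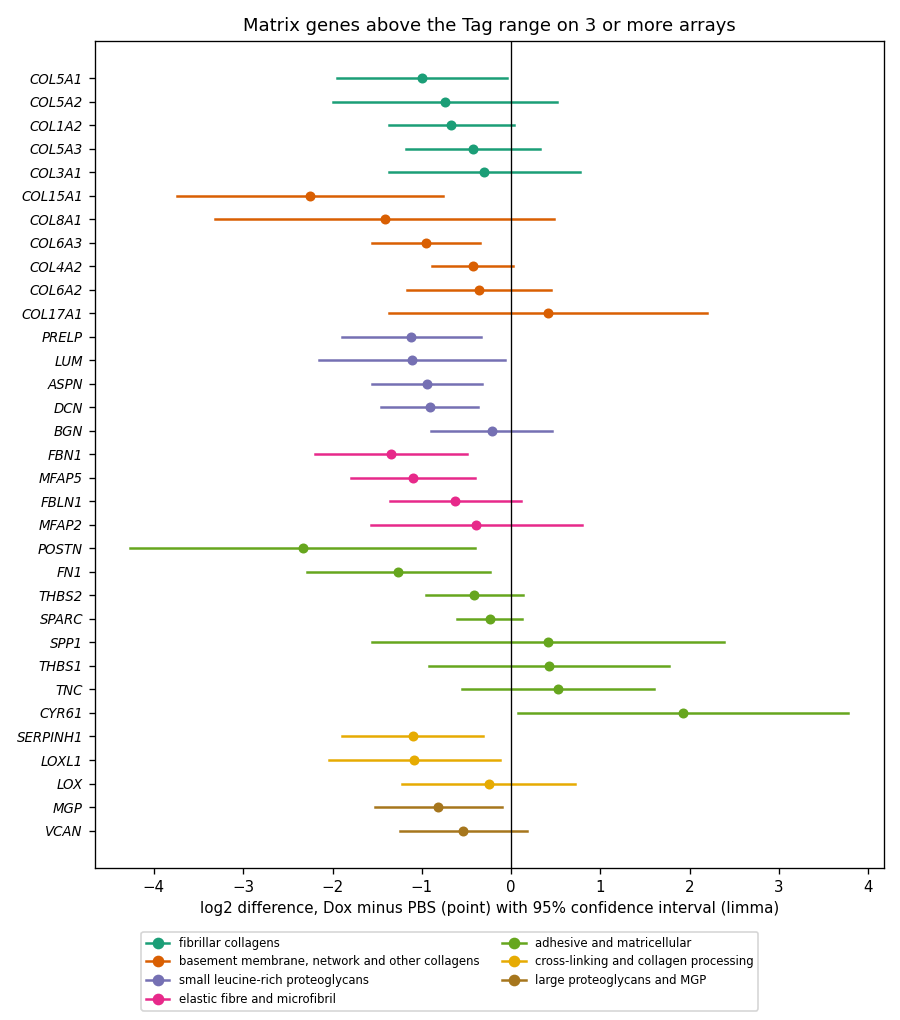
Log2 difference, Dox-injected minus PBS-injected (points), with 95% limma intervals for the 33 matrix genes read, coloured by class. The difference is below 0 for 28 of the 33 (57.2% of all genes as bright), from -2.34 for POSTN, and the 5 genes above 0 are COL17A1, SPP1, THBS1, TNC and CYR61.

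The adhesive and matricellular genes did not share a direction, with 4 of 8 below 0, 4 above 0 and a median difference of 0.09, which turned to -0.23 when Dox replicate 1 was omitted and to -0.26 when Dox replicate 3 was. POSTN, which encodes periostin, a protein of activated and developmental fibroblasts, had signals of 404.4, 179.7 and 176.9 in PBS-injected and 168.8, 52.4 and 11.3 in Dox-injected piglets. Every Dox-injected piglet lay below every control, but Dox replicate 1 only slightly, and the Dox-injected signals were far apart from each other. The difference was -2.34 (SE 0.84, limma adjusted p = 0.521), a 5.05-fold lower geometric mean. Omitting Dox replicate 3 gave -1.32, and omitting Dox replicate 1 gave -3.27. The other POSTN probe set lay at 0.4 to 2.6 and is not read, and averaging both gave -0.63 (limma unadjusted p = 0.259).

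FN1 encodes fibronectin, an adhesive glycoprotein on which collagen fibrils assemble. Its brightest probe set had signals of 1485.8, 553 and 647.2 in PBS-injected and 608.9, 240.6 and 263 in Dox-injected piglets. PBS replicate 1 was far above the other controls and Dox replicate 1 overlapped them. The difference of -1.26 (SE 0.45, limma adjusted p = 0.521) was -0.82 without PBS replicate 1. A dim FN1 probe set had signals of 5.3 to 29.1 and a difference of -0.55 (limma adjusted p = 0.751), and the other 2 lay at 0.3 to 4.6. The average over all 4 sets was -0.69 (limma unadjusted p = 0.166).

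SPARC and THBS2 were not nominally lower. SPARC encodes osteonectin, a collagen-binding protein needed for fibril maturation. Its signals were 3954.6, 3727.4 and 3912.5 in PBS-injected and 3928.7, 2845.1 and 3133.3 in Dox-injected piglets, a difference of -0.24 (95% CI -0.61 to 0.13, limma adjusted p = 0.626). Dox replicate 1 was within the range of the controls and the other 2 were below it. Averaged with a second SPARC probe set, which was mostly within the Tag range, the difference turned to 0.10, whereas quantile and cyclic loess normalization of the arrays gave -0.49 and -0.45, both nominally lower (limma unadjusted p = 0.0123 and 0.0164). THBS2, the thrombospondin-2 gene, had 195.8, 144.8 and 225.3 against 150.1, 153.4 and 117.7, a difference of -0.41 (limma adjusted p = 0.589).

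CYR61 was the only nominally higher gene of the 37, and among omissions of 1 array it stayed so only when PBS replicate 2 or Dox replicate 1 was left out. It encodes a CCN family matricellular protein and is an immediate target of serum and stretch signals. The signals were 263.7, 826.9 and 343.4 in PBS-injected and 392.7, 2346.5 and 4447.1 in Dox-injected piglets. Dox replicates 2 and 3 were above every control, whereas Dox replicate 1 lay among them. The geometric mean was 3.80-fold higher (difference 1.92, SE 0.81, limma adjusted p = 0.521, exact permutation p = 0.2), and the difference was 1.19 when Dox replicate 3 was omitted and 2.94 when Dox replicate 1 was. The same 2 animals had the lowest COL15A1 and POSTN signals.

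SPP1 and THBS1 lay above every control in 2 Dox-injected animals each, and TNC clearly so in 1. SPP1, which encodes osteopontin, a cytokine-like matrix protein, had signals of 126.9, 137.3 and 197.1 in PBS-injected and 405.5, 37.5 and 532.1 in Dox-injected piglets. Dox replicates 1 and 3 lay above and Dox replicate 2 below every control, and the difference of 0.41 (95% CI -1.56 to 2.38, limma adjusted p = 0.886) turned below 0 without either of the higher 2. Without Dox replicate 2 it was 1.62, and SPP1 was then nominally higher (limma unadjusted p = 0.000704, adjusted p = 0.656). THBS1, the thrombospondin-1 gene, had 58.8, 67 and 45.1 against 28.4, 81.7 and 184.2 at its brightest probe set. Its difference of 0.42 (limma adjusted p = 0.82) was -0.22 without Dox replicate 3. Without Dox replicate 1 it was 1.13 and nominally higher (limma unadjusted p = 0.0225, adjusted p = 0.241). The signal of Dox replicate 3 was also the highest at the other 4 THBS1 probe sets, as at 129.3 against 5.1 to 16.6. TNC, which encodes tenascin-C, a protein of injured and developing tissue, had 7.4, 7.8 and 6.6 against 7.2, 8.6 and 18.3, so that only Dox replicate 3 stood apart (difference 0.52, limma adjusted p = 0.708).

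**Figure D3:**
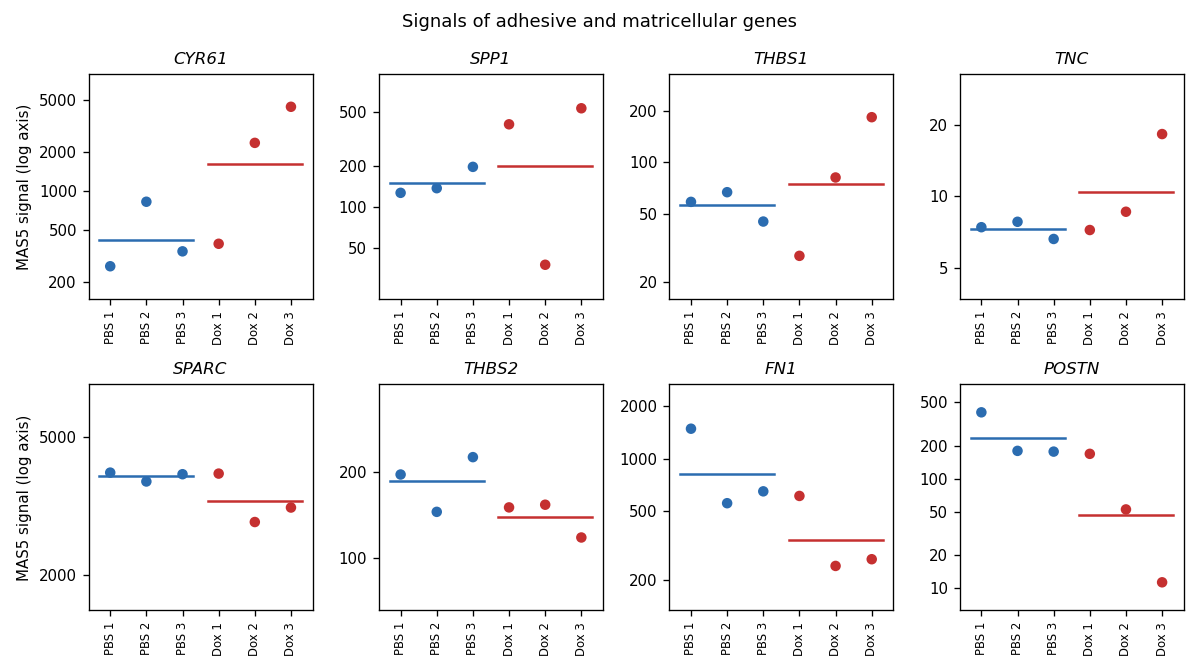
MAS5 signal (log axis) of the 8 adhesive and matricellular genes on each array, with PBS-injected piglets in blue, Dox-injected piglets in red and lines at the geometric means of 3 arrays. CYR61 reaches 4447.1 and POSTN falls to 11.3 on the same array, Dox replicate 3, and SPP1 is at 37.5 on Dox replicate 2.

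Of the 3 genes that process collagen, SERPINH1 and LOXL1 were nominally lower. SERPINH1 encodes HSP47, the chaperone of procollagen in the endoplasmic reticulum. Its signals were 403.6, 168.6 and 177.7 in PBS-injected and 119.5, 114.6 and 89.2 in Dox-injected piglets. The groups did not overlap, and the Dox-injected piglets lay close together (difference -1.10, SE 0.35, limma adjusted p = 0.521). LOXL1, a lysyl oxidase-like enzyme of elastic fibres, had 258.3, 79.2 and 105.1 against 57.1, 73.2 and 54.2, again without overlap. PBS replicate 1 was far above the other controls for both genes, and without it the difference was -0.70 for SERPINH1 and -0.58 for LOXL1. LOX, the main lysyl oxidase, which cross-links collagen, had 20.5, 10.9 and 9.9 against 11.8, 12.9 and 8.6 (difference -0.25, 95% CI -1.22 to 0.72, limma adjusted p = 0.857). Without PBS replicate 1 the LOX difference was 0.07.

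MGP, the matrix Gla protein that inhibits calcification, had signals of 2580.9, 1801.3 and 2998.3 in PBS-injected and 1906.1, 1562.9 and 856.3 in Dox-injected piglets. The groups overlapped at PBS replicate 2 and Dox replicate 1, and the difference of -0.82 (SE 0.31, limma adjusted p = 0.521) was -0.48 without Dox replicate 3. VCAN encodes versican, a large hyaluronan-binding proteoglycan. Its brightest probe set had signals of 170.4, 103.1 and 177 against 141.5, 94 and 77 (difference -0.53, limma adjusted p = 0.59, or -0.34 without Dox replicate 3). Of the other 4 VCAN probe sets, those at 5.4 to 22.2 and 5.3 to 12.2 had differences of -0.58 and 0.04, and both remaining sets lay at 0.1 to 5.

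Animals within a group differed together across the 33 genes. PBS replicate 1 had the highest signal of all 6 arrays in 19 genes and Dox replicate 3 the lowest in 19. Relative to the mean of the 3 controls, the median over the 33 genes was 0.27, -0.33 and 0.01 in PBS replicates 1, 2 and 3. It was -0.34, -0.63 and -1.01 in Dox replicates 1, 2 and 3, so that Dox replicate 1 was level with PBS replicate 2. Without Dox replicate 3, 10 of the 37 genes were nominally lower, against 5.23% of all genes. The median signal over all probe sets was also lowest on Dox replicate 3, at 13.5 against 15.2 to 17.8 on the other arrays, and its part in the matrix values was not tested.

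**Figure D4:**
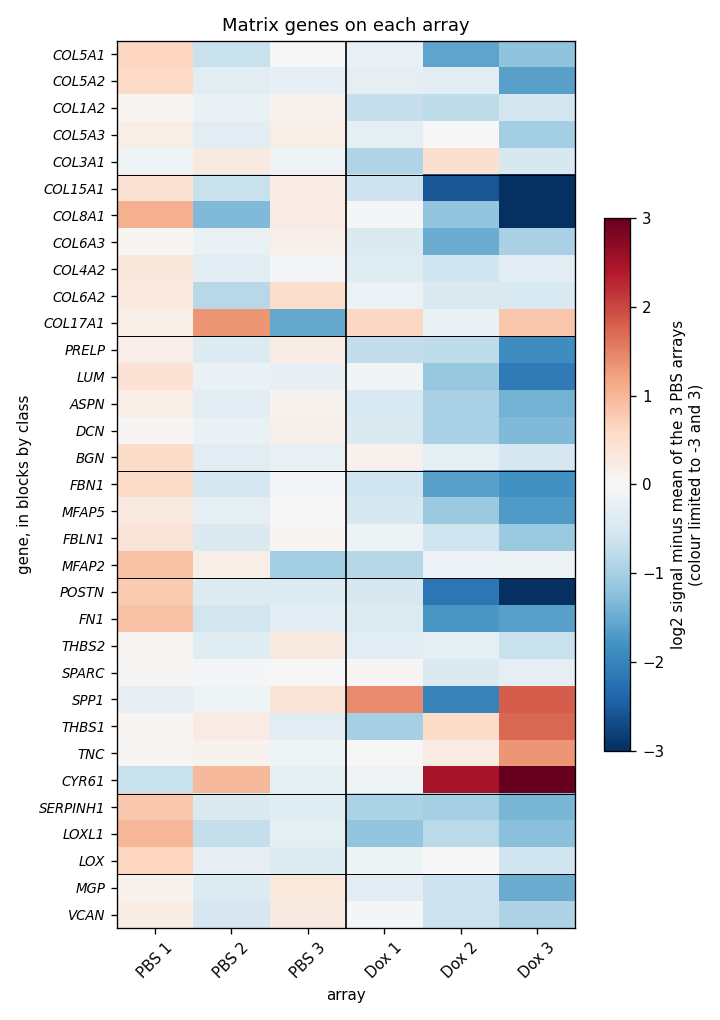
Log2 signal of the 33 matrix genes read, minus the mean of the 3 PBS arrays, on each array (columns), with the genes in blocks by class and colour limited to -3 and 3. The column of Dox replicate 3 is the most blue, with a median of -1.01, and its red cells are SPP1, THBS1, TNC, CYR61 and COL17A1.

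Collagens were then set against the other classes. The 15 collagen genes had a median difference of -0.43 with 12 below 0, and the 22 other matrix genes had -0.72 with 18 below 0. Without PBS replicate 2 the collagen median was -0.67. The collagen median was thus 0.29 higher, a gap that ranged from 0.12 (without Dox replicate 2) and 0.14 (without PBS replicate 1) to 0.45 (without Dox replicate 1) and was -0.066 when each of the 68 probe sets was counted on its own. The -0.43 includes the 4 collagens not read, and over the 11 that were read the collagen median was -0.67 against the -0.72 of the others. By class, the median was -0.67 over the 5 fibrillar collagens and -0.69 over the 6 other collagens that were read, and -0.42 and -0.69 over all 7 and all 8. Without Dox replicate 3 the median of the 7 was -0.21. It was -0.95 for the proteoglycans, -0.86 for the 4 elastic fibre genes, -1.08 for the 3 processing genes (-0.58 without PBS replicate 1) and -0.68 for VCAN and MGP. The nominally lower genes were 3 of 15 collagens, or 3 of the 11 read, and 11 of 22 others, against 6.61% of all genes. These are descriptions, since a difference between classes was not tested. The medians over the collagens and the others that were read were -0.97 and -1.18 on Dox replicate 3 and 0.30 and 0.24 on PBS replicate 1.

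Further matrix genes, such as laminins and the enzymes that modify collagen, were examined as a separate list. Of 70 genes, 26 have a named probe set. Of these, 23 had a difference below 0 (56% of all genes) and 5 were nominally lower (6.61% of all genes). In the same list 0 were nominally higher (4.92% of all genes), 0 passed after adjustment in limma, and the median was -0.38. SPARCL1, a relative of osteonectin, had signals of 1413.1, 1025.6 and 1202.5 in PBS-injected and 804.8, 776.8 and 536.7 in Dox-injected piglets, with no overlap (difference -0.79, SE 0.21, limma adjusted p = 0.521). LAMB1, a laminin chain of basement membranes, had 482.3, 309.9 and 331.1 against 243.4, 187.4 and 256.2, also without overlap (difference -0.69). P4HA2, a subunit of the collagen prolyl 4-hydroxylase, had 205.8, 157.1 and 196.2 against 170.9, 83.6 and 48.5 (difference -1.06). CRTAP, part of the prolyl 3-hydroxylase complex, and LOXL4, a lysyl oxidase-like enzyme, had differences of -0.76 and -0.95. PLOD1, a collagen lysyl hydroxylase, had -0.77, with a limma unadjusted p of 0.0533. LAMC1, the gamma-1 laminin chain found in most basement membranes, differed by only -0.06 (limma adjusted p = 0.918).

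Marker genes of the cell types in the ventricular wall were read beside the matrix genes. For fibroblasts, the main source of matrix, 7 of 10 marker genes outside the matrix list were measured, all above the Tag range, 5 of them below 0, with a median difference of -0.29. Their summed signal ran from 3828 to 5806 among controls and from 3643 to 4095 after Dox, so the groups overlapped. THY1, a surface glycoprotein of fibroblasts, had signals of 1419.4, 447.6 and 652 against 561.8, 99.2 and 41.4, and FAP, a fibroblast protease, had 222.3, 143.8 and 158.6 against 121.6, 79 and 40, with the groups overlapping for THY1 only. TCF21, PDGFRB and VIM, also expressed by fibroblasts, had differences of -0.29, 0.02 and -0.02. THY1 and FAP were nominally lower and the other 5 were not.

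Of 8 endothelial markers, 7 were below 0, with a median of -0.61 and summed signals of 1494 to 2296 against 1318 to 1426, which did not overlap. The 3 nominally lower were TIE1, CDH5 and CD34 (differences -1.29, -0.65 and -0.99), whereas PECAM1 and VWF had -0.14 and 0.15. Of 9 cardiomyocyte markers, 8 were above 0 and RYR2 was at -0.29, with a median of 0.28. Their summed signals of 39890 to 48430 against 47910 to 62380 overlapped. MYH7 alone was nominally higher (difference 0.37, limma unadjusted p = 0.0414), and 4 of the 9 were higher without overlap (9.06% of all genes). The medians were 0.07 over 6 smooth muscle and pericyte markers, 0.28 over 7 leukocyte markers, -0.81 over 3 red cell markers and 0.24 over 4 adipocyte markers. Over the markers above the Tag range they were 0.27 for 5 smooth muscle and pericyte, 0.16 for 4 leukocyte and -0.027 for 3 adipocyte genes. Among the leukocyte markers PTPRC was as dim as the Tag spots on 5 of 6 arrays, and CD3D on all 6. The single epicardial marker measured, WT1, had signals of 3.1 to 6, and of 3 measured cartilage, tendon and bone markers, ACAN and SOX9 lay mostly within the Tag range. The part of any of these cell types in the lower matrix signals was not tested.

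**Figure D5:**
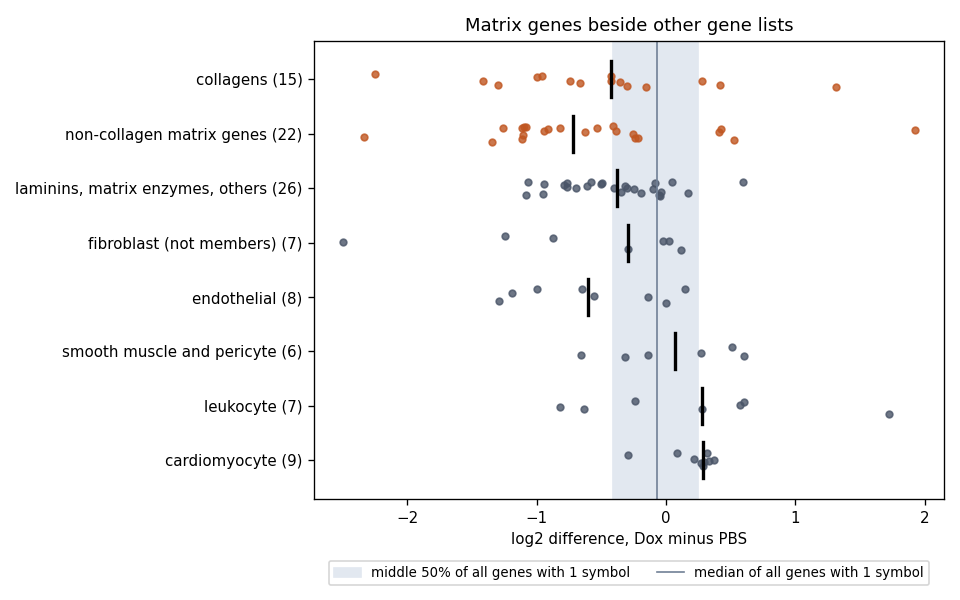
Log2 difference, Dox-injected minus PBS-injected, for each gene (points, with the number of genes in brackets) and the median (black bars) of the 15 collagens, the 22 other matrix genes and lists of further matrix genes and cell type markers, spread vertically at random. The grey band holds the middle 50% of the 6765 genes with 1 symbol, and the medians of both matrix groups, at -0.43 and -0.72, lie to its left.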

How the data were processed

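Per the labels and the paper's methods, the authors hybridized total RNA of 6 piglets, 1 animal per array, and computed MAS5 signals (intensity, linear scale) with GCOS 1.4 at default settings. The 2% trimmed mean of the deposited intensity values was 100.03 to 100.04 on each array. Of 24123 probe sets, 124 array controls were left out. A floor of 0.1 replaced signals of 0 (311 probe sets), and log2 values entered the fit with no added normalization, filter or covariate. Groups came from the sample titles. limma 3.58.1 in R 4.3.3 (lmFit, eBayes with an intensity trend) was fitted over 23999 probe sets with Benjamini-Hochberg adjustment, and single genes also had an exact two-sided permutation test. The methods' t-test is an equal-variance test on log2 signals. Gene names came from the platform annotation, in which 10069 probe sets have 1 symbol, 198 several and 13732 none. The fit was tested on simulated data. Every matrix gene could be named. The rule gave signals on every array for genes with an unadjusted p of at most 0.05, for 25 central genes where measured, and for the smallest p of each class. The members and lists were chosen with earlier results of these data known. Plots used Python 3.11.15 with matplotlib 3.10.9. The replicate numbers did not pair the animals. The paper's other assays and sequences were not analysed here.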

Additional observations from a re-analysis of the deposited data

How the results depend on the processing

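With limma's adjusted limit of 0.05 and a 2-fold difference, 0 matrix genes passed in each setting run. The lowest adjusted p-values were those without Dox replicate 1 (0.0723 for COL15A1, 0.0965 for CYR61 and 0.0994 for DCN), whereas with all 6 arrays 0 passed a limit of 0.1. In limma with all arrays, 13 of the 68 probe sets had an unadjusted p of at most 0.05 with a 2-fold difference. They include both FBN1 sets and a THBS1 set within the Tag range on 4 arrays. The share over all probe sets is not given here. Of the 33 genes read, 24 never changed direction and 9 did, over up to 16 settings. Leaving out single arrays gave 8 to 18 nominally lower genes, 0 to 2 nominally higher, 11 to 22 lower without overlap and 0 to 3 higher without overlap. Over all genes, 2.5% to 11.9% were nominally lower and 14.3% to 22.6% lower without overlap in these settings. Shares of higher genes are not given here. The median ranged from -0.67 to -0.31 for collagens and from -0.26 to 0.11 for adhesive genes, from -0.64 to -0.21 for fibrillar collagens, -0.84 to -0.52 for the other collagens and -1.32 to -0.58 for processing genes. The difference ranged from -0.29 to 1.62 for SPP1, -0.22 to 1.13 for THBS1, -0.45 to 0.07 for LOX, -0.91 to 0.0445 for MFAP2, -0.39 to 0.06 for BGN, -0.978 to -0.30 for COL5A2 and -0.35 to 1.08 for COL17A1.

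Without both PBS replicate 1 and Dox replicate 3, a setting chosen after seeing the data, 4 genes were nominally lower and 0 nominally higher. Over all genes, 2.94% were nominally lower. Without overlap, 11 matrix genes were lower (19.6% of all genes) and 2 higher. The medians were then -0.16 for collagens, -0.0395 for fibrillar collagens, -0.23 for the other collagens, -0.22 for adhesive and -0.50 for processing genes, with differences of -0.42 for SPP1, -0.19 for THBS1, 0.25 for LOX, 0.0005 for COL5A2 and 0.20 for BGN. Array weights gave -0.32 for adhesive genes, -0.97 for SPP1, 0.039 for LOX and 0.074 for COL3A1. Without the intensity trend 9 were nominally lower and 0 higher, and by the methods' t-test 5 and 0.

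An offset of 16 gave -0.37 for the other collagens and -0.013 for adhesive genes. Omitting dim probe sets, which leaves fewer genes, gave 0 nominally higher, -0.67 for collagens and -0.24 for adhesive genes. Averaging the probe sets of a gene, dim sets included, gave 10 nominally lower genes (6.44% of all genes), without DCN, POSTN, FN1 and COL5A1. It gave -0.39 for the other collagens and 0.10 for SPARC. With each probe set on its own, 2 were nominally higher, 2 were higher without overlap, the non-collagen median was -0.36, the adhesive median 0.42 and the collagen minus other gap -0.066. Quantile and cyclic loess normalization each left 1 higher without overlap, with 12 and 13 lower without overlap (8.74% and 8.48% of all genes). Where no construction is named, the cause was not tested.

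Equal replicate numbers did not pair the animals (correlations of deviations -0.0056, 0.0236 and -0.0554), and the replicate block left 14 genes nominally lower. Signals within the Tag range limit 4 genes and 24 of the 68 probe sets.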
